A study of Mus musculus with 2 samples.

Results

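The 48 genes of the DNA replication machinery were described in midbrain tissue taken from embryos of the B6NCrl mouse strain on day 11.5 of development. The rule that picks them uses gene names and no measured value, although earlier results of these data were known when the list was drawn up. They comprised 9 genes of origin licensing, 16 of the replicative helicase and its relatives, 9 of the replicative polymerases, 6 of the sliding clamp and its loader, and 8 of single-stranded DNA binding, Okazaki fragment maturation and topoisomerases. Each was found in the gene tables by its identifier, so 48 of 43346 genes were members. The study holds 1 group of 2 biological replicates, and no embryo was treated or mutant as far as the labels say. Midbrains of 109 embryos were pooled for replicate 1 and of 88 embryos for replicate 2, with both sexes in each pool. Total RNA was sequenced, starting with 10 ng per library, kept above 200 nt and spiked with synthetic ERCC RNAs. Pools average over embryos, so differences between the replicates describe these 2 libraries and not the spread between embryos.

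A cell copies its genome once per division. In G1 phase the origin recognition complex, with CDC6 and CDT1, loads the ring of MCM2 to MCM7 onto DNA, and in S phase the kinase CDC7 with DBF4 and the factors CDC45 and GINS turn that ring into an active helicase. Polymerase alpha with primase starts each strand, polymerases epsilon and delta extend it behind the clamp PCNA, and nuclease, ligase and topoisomerases finish and untangle the copies. Among neural cells of the embryonic midbrain, these steps belong mainly to the dividing progenitors of the ventricular zone. Newly formed neurons have left the cell cycle.

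The libraries held 41760197 and 49256468 expected counts (estimated reads, which need not be whole), of which 38884247 and 45975100 fell on genes. Markers of neural progenitors (median 122 TPM over 8) and of neurons (median 167 TPM over 8) were present. TPM is a relative level of transcripts per length, scaled to a fixed total. The whole lists of other cell types were present as well, with 9 of 9 erythroid, 6 of 6 endothelial, 6 of 6 mesenchymal and 6 of 6 microglia and macrophage markers at 1 TPM or more in both libraries. The summed level of the 9 erythroid markers was 12980 TPM in replicate 1 and 13050 TPM in replicate 2. Most of that sum came from the globin genes Hbb-y (8311 TPM), Hba-x (2485 TPM) and Hbb-bh1 (2120 TPM). The median of the 9 was 23.7 TPM. The 8 progenitor markers summed to 2727 and 2817 TPM. No marker of these lists was at 0. Dividing cells of any of these types use the same replication genes, and their part in the levels below was not tested. In a bulk tissue, fewer cells of a type and less RNA per cell cannot be told apart.

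All 48 replication genes reached 1 TPM in both libraries, against 58.2% of 21474 protein-coding genes and 32.1% of all genes. At 10 TPM the count was 47 of 48, against 37.6% of protein-coding genes, and at 100 TPM it was 17 of 48, against 6.77%. The median member lay at 81.7 TPM (79.4 in replicate 1 and 82.6 in replicate 2), against 18.5 TPM for the 12496 protein-coding genes at 1 TPM or more. Among those detected genes 44 of the 48 members lay above the median (18.5 TPM), 32 above the 75th percentile and 12 above the 90th. Together the members took 0.530% of all gene TPM in replicate 1 and 0.532% in replicate 2. Levels ran from Mcm9 (3.935 ± 0.00707 TPM) to Top2a (331.1 ± 1.12 TPM). Values given as mean ± SD are over the 2 libraries (n = 2).

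**Figure D1:**
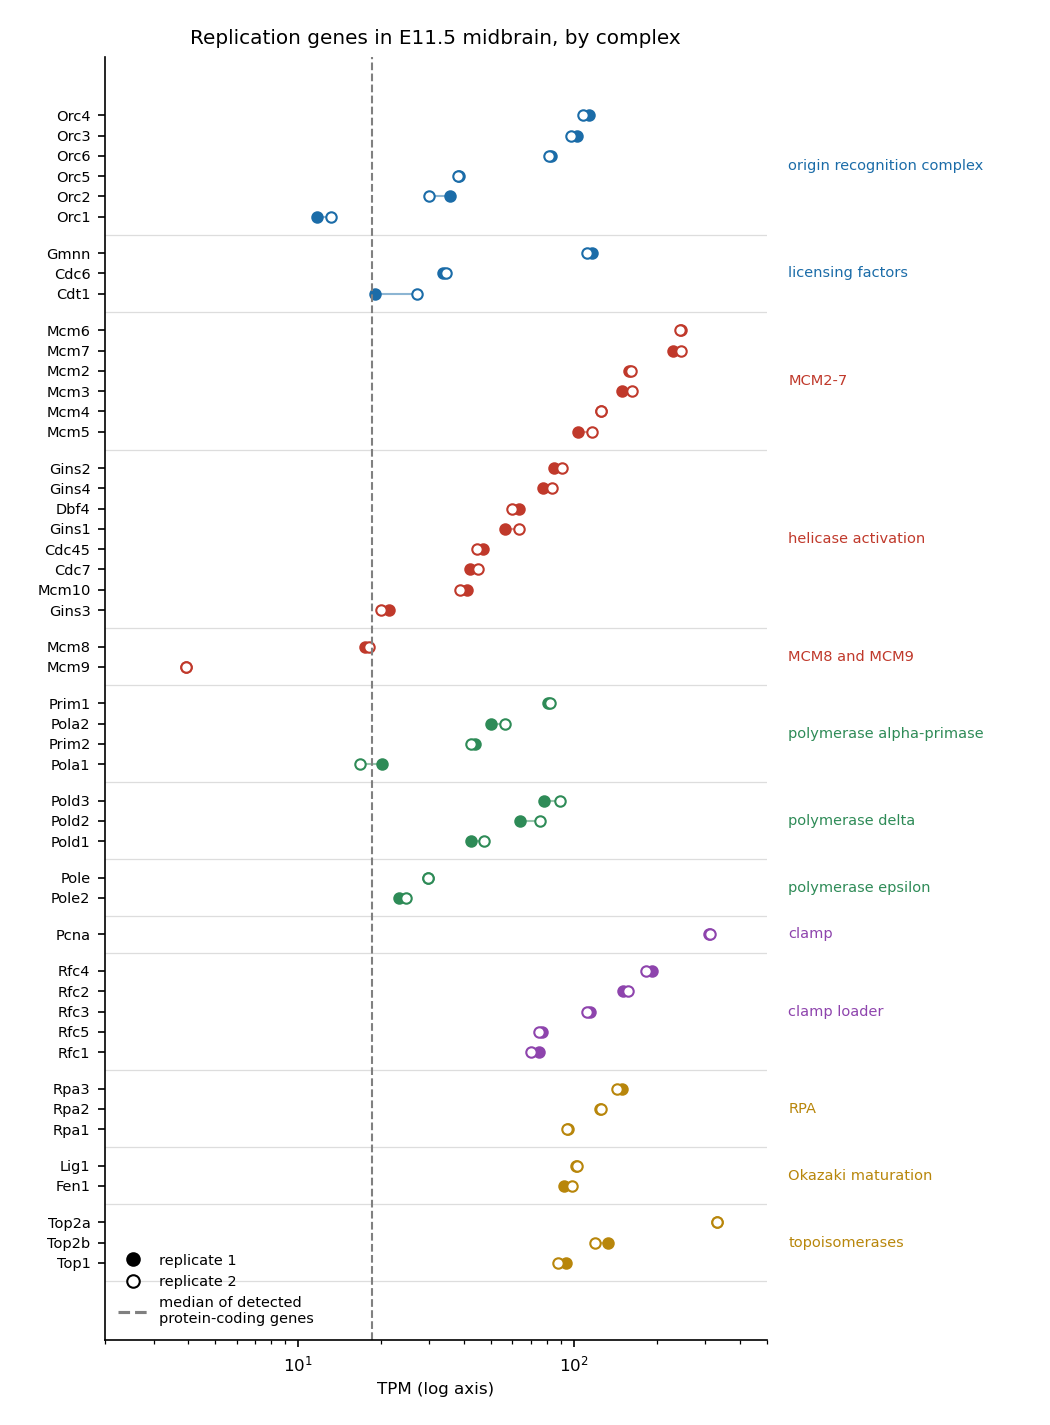
TPM of each of the 48 replication genes (log axis), in replicate 1 as filled points and replicate 2 as open points. Genes are grouped by complex or set of factors and coloured by role. The dashed line is the median of detected protein-coding genes, 18.5 TPM. The 2 points of most genes touch, Cdt1 is the widest pair, and Top2a, Pcna, Mcm6 and Mcm7 lie farthest to the right.

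The genes of origin licensing were among the lower members, with a median of 38.25 TPM over 9 genes. The origin recognition complex, 6 subunits that mark where replication may start, spread over 8.90-fold. Its lowest subunit was Orc1, an ATPase whose protein is removed and made anew in each cycle in human cells, with 11.73 TPM in replicate 1 and 13.24 TPM in replicate 2. Orc2 (32.67 ± 4.01 TPM) and Orc5 (38.25 ± 0.134 TPM) lay near each other, and the deposited intervals of this pair were not apart in both libraries. Orc6, the subunit least like the others in sequence, followed at 81.89 ± 0.771 TPM. Orc3 (100.4 ± 3.99 TPM) and Orc4 (111.1 ± 4.04 TPM), both core subunits, were the highest. The order of Orc1, then Orc2, Orc5, Orc6, Orc3 and Orc4 was the same in both libraries over all transcripts. Over protein-coding transcripts alone Orc4 had 32.0 TPM, below Orc6 at 81.9 TPM and Orc3 at 64.2 TPM.

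Cdc6 and Cdt1, which work with this complex, lay below the median member but above the median of detected protein-coding genes. Their inhibitor lay above both medians. Cdc6, the ATPase that joins the complex to load the helicase, had 33.64 TPM in replicate 1 and 34.47 TPM in replicate 2. Cdt1, which brings MCM2 to MCM7 to the origin, had 19.11 TPM in replicate 1 and 26.97 TPM in replicate 2. Gmnn encodes geminin, which binds CDT1 and blocks a further round of loading, and it had 116.06 and 111.31 TPM. Gmnn thus lay 6.07-fold above Cdt1 in replicate 1 and 4.13-fold above it in replicate 2, with intervals apart in both. The ratio of the library means was 4.93, and it compares RNA levels, not protein.

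The helicase ring itself was high. All 6 genes from Mcm2 to Mcm7 exceeded 100 TPM in both libraries, and their median was 158.1 TPM. Mcm6 had 244.41 TPM in replicate 1 and 242.41 TPM in replicate 2. Mcm7 had 230.05 and 245.3 TPM, so that Mcm6 was the higher in replicate 1 and Mcm7 in replicate 2, where their intervals overlapped. Mcm2 (160.3 ± 1.94 TPM) and Mcm3 (155.8 ± 9.23 TPM) formed a second pair whose order differed between the libraries. Mcm4 (125.6 ± 0.0424 TPM) and Mcm5 (109.9 ± 9.18 TPM) were the lowest of the ring, so that its genes spanned 2.21-fold. The proteins form a ring with 1 copy of each.

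Set against the origin recognition complex, the ring was higher by 1.48 ± 0.0603 in the median of log2(TPM + 1) (SD, n = 2), with 1.44 in replicate 1 and 1.52 in replicate 2. With 2 libraries the smallest p of an exact sign-flip test is 0.5, so the difference was not tested. It grew to 2.08 where TPM was summed over protein-coding transcripts alone.

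The factors that activate the ring lay below it, with a median of 52.76 TPM over 8 genes and none at 100 TPM. Cdc7, the kinase, had 43.53 ± 1.85 TPM, and its activating subunit Dbf4 had 61.66 ± 2.64 TPM. Cdc45, which with GINS completes the active helicase, had 45.82 ± 1.73 TPM, and Mcm10, which acts in helicase activation, had 39.89 ± 1.58 TPM. The 4 GINS subunits were uneven although they form a complex with 1 copy of each. Gins2 (88.06 ± 4.15 TPM), Gins4 (80.27 ± 4.23 TPM) and Gins1 (59.7 ± 4.87 TPM) lay well above Gins3, which had 21.33 TPM in replicate 1 and 19.99 TPM in replicate 2. That made a 4.26-fold span across the 4 subunits over all transcripts. Over protein-coding transcripts alone Gins2 had 21.6 TPM, close to Gins3 at 20.7 TPM, and the span was 3.89-fold. Mcm8 (17.84 ± 0.424 TPM) and Mcm9, which form a separate helicase used in DNA repair, were 2 of the 4 members below the median of detected protein-coding genes. Mcm9 had 503 counts in replicate 1 and 600 in replicate 2, the smallest counts of any member.

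The polymerase genes had a median of 44.91 TPM, and none of the 9 reached 100 TPM. In polymerase alpha-primase, which lays down the first RNA and DNA of each strand, the small primase subunit Prim1 was highest (81.52 ± 0.728 TPM). Pola2, the accessory subunit, had 53.36 ± 4.53 TPM, and Prim2, the large primase subunit, had 43.14 ± 1.22 TPM. The catalytic subunit Pola1 was lowest, with 20.19 TPM in replicate 1 and 16.85 TPM in replicate 2. In polymerase delta, which copies the lagging strand, the catalytic subunit was the lowest of the 3 members, with Pold1 at 44.91 ± 3.4 TPM, Pold2 at 69.66 ± 8.0 TPM and Pold3 at 83.53 ± 8.0 TPM. In polymerase epsilon, which copies the leading strand, the catalytic gene Pole (29.64 ± 0.0283 TPM) and its partner Pole2 (23.89 ± 0.955 TPM) were within 1.24-fold. Pole was the higher over all transcripts in both libraries, and the lower over protein-coding transcripts alone, with 17.6 and 19.1 TPM beside 23.2 and 24.6 TPM for Pole2.

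The clamp was the second highest member. Pcna, whose protein rings hold polymerases on DNA, had 308.53 TPM in replicate 1 and 313.0 TPM in replicate 2. A processed pseudogene, Pcna-ps2, was listed at 2.22 and 2.08 TPM, and the counts of Pcna were not whole numbers, so some of its reads were shared out between loci. The loader of the clamp had a median of 113.1 TPM over 5 genes. Its small subunits Rfc4 (187.5 ± 6.78 TPM), Rfc2 (154.2 ± 5.34 TPM) and Rfc3 (113.1 ± 2.38 TPM) lay above Rfc5 (75.86 ± 1.57 TPM) and the large subunit Rfc1 (72.32 ± 3.21 TPM). The intervals of Rfc5 and Rfc1 overlapped in both libraries.

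The genes that act on the single strand and on the finished strands were high throughout, with a median of 113.9 TPM and a lowest value of 90.62 ± 4.08 TPM for Top1, which relieves supercoils by cutting 1 strand. Replication protein A coats single-stranded DNA as a trimer. Its subunits spanned 1.54-fold, or 2.77-fold over protein-coding transcripts alone, with Rpa3 at 146.5 ± 4.38 TPM, Rpa2 at 125.5 ± 0.559 TPM and Rpa1 at 95.05 ± 0.771 TPM. Fen1, the flap nuclease of Okazaki fragments, and Lig1, the ligase that joins them, were within 1.07-fold of each other. Fen1 had 92.27 and 98.68 TPM, and Lig1 had 101.65 and 103.06 TPM. Top2a, the type II topoisomerase of dividing cells, had 331.91 TPM in replicate 1 and 330.33 TPM in replicate 2. Top2b, the form that is also found in cells that no longer divide, had 132.81 and 119.06 TPM. Top2a carried 34161.8 and 39316.0 counts, the most of any member.

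Pairs of genes were compared within 12 groups of 2 or more genes. Licensing factors, helicase activation, Okazaki maturation and topoisomerases are sets of factors and not single complexes. They hold 3, 28, 1 and 3 of the 89 pairs. Pairs of members from different groups were not counted separately. In 79 of 89 pairs (88.8%) the deposited TPM intervals were apart, the same way, in both libraries. Over all pairs of genes at 1 TPM or more the share was also 88.8%, so this count says nothing particular to the replication genes. A difference of at least 2-fold, the same way in both libraries, was met by 31 of the 89 pairs, against 71.9% of all pairs of genes at 1 TPM or more. The sources used here do not give the level of the intervals, which cover estimation from reads within 1 library only.

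The other gene lists placed the members among related processes. The 23 listed companions of the replisome were all at 1 TPM or more but had a lower median, 34.4 TPM. Their highest were Tipin, a fork protection factor, at 185.3 TPM, Rnaseh2c at 118.1 TPM and Pole3, a small subunit of polymerase epsilon, at 104.9 TPM, and their lowest were Ticrr at 8.75 TPM, Pold4 at 8.745 TPM and Recql4 at 4.7 TPM. The fourth subunit of polymerase delta, Pold4, was thus far below its 3 partners among the members. Pole3 was far above Pole (29.64 TPM) and Pole2 (23.89 TPM), so polymerase epsilon was less even than those members alone. Genes of deoxynucleotide supply had a median of 139 TPM over 10, led by Rrm2 (419.3 TPM), the small subunit of ribonucleotide reductase. Genes of replication-coupled chromatin assembly had a median of 72.4 TPM over 9, and mitotic genes a median of 91.6 TPM over 10. The list of ubiquitin ligase genes and regulators linked to CDT1 turnover had a median of 74 TPM over 8. Of these 6 lists of processes the translesion and repair polymerases were lowest, with a median of 10.2 TPM over 12, from Polb at 71.35 TPM to Polk at 5.25 TPM. No p is attached to these medians, since the lists were chosen with results known.

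**Figure D2:**
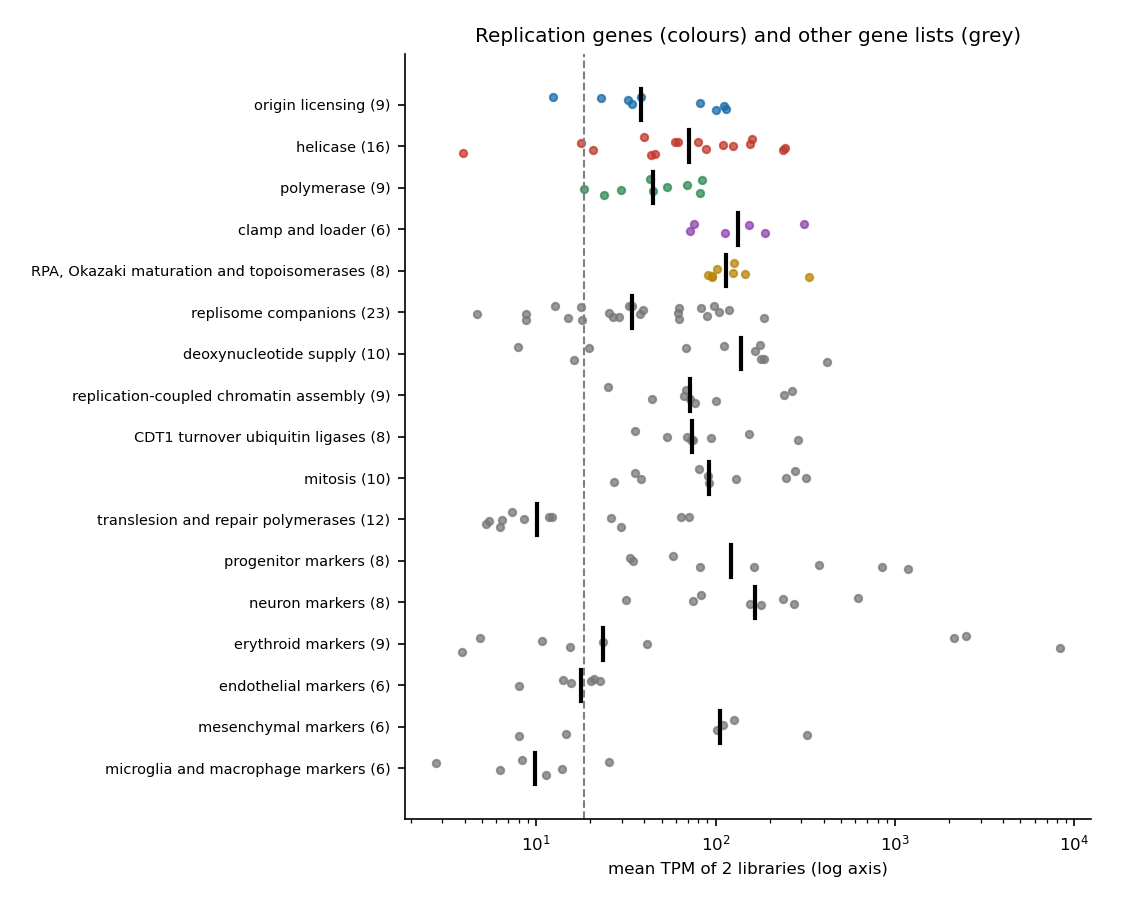
Mean TPM over the 2 libraries (log axis) for the replication genes in their 5 roles (colours) and for 12 other lists (grey), with each list's size in brackets, its median as a black bar, and the median of detected protein-coding genes, 18.5 TPM, as a dashed line. Clamp and loader genes (median 133.7 TPM) lie near the deoxynucleotide supply genes (139 TPM), and translesion and repair polymerases (10.2 TPM) have a median to the left of that of every replication class.

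Promoter sequences show what the members share apart from their roles. The transcription factors of the E2F family switch on genes of the start of S phase, and CCAAT and CHR elements (cell cycle genes homology regions) are typical of genes that rise later, towards mitosis. RefSeq promoters on GRCm38.p6, covering 250 bases before to 50 bases after the annotated start, were matched for 40 of the 48 members. The E2F-type letters searched were TTTCCCGC, TTTCGCGC, TTTGCCGC and TTTGGCGC on both strands, where matches may overlap. They were present in 16 of 40 members (40%), against 4.75% of 9823 protein-coding genes at 1 TPM or more and 2.6% of all 27025 genes with a promoter entry. By role they were found in 6 of 12 helicase genes, 4 of 8 licensing genes, 4 of 7 polymerase genes, 1 of 5 clamp and loader genes and 1 of 8 genes of the last class. The members with the letters were Orc1, Orc3, Cdc6, Cdt1, Mcm3, Mcm5, Mcm6, Mcm7, Mcm8, Gins3, Pola1, Pold1, Pold3, Pole2, Rfc3 and Lig1. Their median level was 64.2 TPM, against 81.7 TPM for the 24 members without them. Pcna and Top2a, the highest members, were among those without them.

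The following stretches lie directly upstream of the RefSeq start, outside annotated exons, and are written 5′ to 3′ on the strand of the gene with the E2F-type letters in capitals. They are shown because they cover a loader below the median member, members of the high ring and the lowest polymerase gene among the members. Cdc6 is at chr11:98907991-98908150 on the plus strand, Mcm5 at chr8:75109329-75109508 on the plus strand, Mcm6 at chr1:128359706-128359845 on the minus strand and Pola1 at chrX:93632156-93632315 on the minus strand.
Cdc6: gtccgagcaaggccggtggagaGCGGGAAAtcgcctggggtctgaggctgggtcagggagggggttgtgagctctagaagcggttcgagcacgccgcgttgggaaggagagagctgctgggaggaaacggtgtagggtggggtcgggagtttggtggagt
Mcm5: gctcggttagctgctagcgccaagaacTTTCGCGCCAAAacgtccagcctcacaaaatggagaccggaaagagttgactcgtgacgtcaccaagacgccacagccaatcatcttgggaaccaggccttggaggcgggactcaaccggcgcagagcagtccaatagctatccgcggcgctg
Mcm6: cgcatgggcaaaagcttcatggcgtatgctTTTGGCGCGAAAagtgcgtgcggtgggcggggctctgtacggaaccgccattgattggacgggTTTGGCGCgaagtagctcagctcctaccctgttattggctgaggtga
Pola1: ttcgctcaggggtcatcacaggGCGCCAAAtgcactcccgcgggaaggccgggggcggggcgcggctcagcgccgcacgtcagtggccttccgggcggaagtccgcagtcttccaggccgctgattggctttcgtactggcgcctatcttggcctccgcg
Mcm5 and Mcm6 each carry a pair of overlapping matches that run in opposite directions, and Mcm6 has another match nearer the start. Cdc6 and Pola1 carry 1 match each, at the same distance from the start. A match is a string of letters and not evidence of binding, and absence of these letters from a window says nothing about the factor.

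CCAAT, on either strand, was present in 25 of 40 members (62.5%), against 43.7% of the expressed protein-coding genes and 41.1% of all genes with a promoter entry. The CHR-type letters TTTGAA and TTCGAA were present in 10 of 40 (25%), against 16.1% and 21.7%. The Sp1-type letters GGGCGG were present in 32 of 40 (80%), against 70.6% and 38.2%. Top2a stood out with 6 CCAAT and 4 CHR-type matches in its window, and 0 E2F-type ones. Top2b, its paralog with a lower level here, had 2 CCAAT matches and 0 CHR-type matches. Both are shown with CCAAT and CHR-type letters in capitals, Top2a from chr11:99024190-99024439 on the minus strand and Top2b from chr14:16364956-16365178 on the plus strand, where the last bases before the start are left out because another annotation places them in an exon.
Top2a: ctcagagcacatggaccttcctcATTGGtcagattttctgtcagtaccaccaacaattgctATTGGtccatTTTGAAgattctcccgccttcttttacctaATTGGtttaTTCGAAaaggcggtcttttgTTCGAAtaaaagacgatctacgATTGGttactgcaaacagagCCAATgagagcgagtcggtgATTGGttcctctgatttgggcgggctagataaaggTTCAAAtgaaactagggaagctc
Top2b: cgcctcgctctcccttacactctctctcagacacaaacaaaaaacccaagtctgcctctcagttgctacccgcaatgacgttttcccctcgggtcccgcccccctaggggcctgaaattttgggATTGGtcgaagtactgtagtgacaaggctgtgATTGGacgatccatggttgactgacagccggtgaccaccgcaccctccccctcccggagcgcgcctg

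The members were also unevenly placed in the genome. Chromosome 5 held 9 of them (18.8%), Orc5, Mcm7, Cdc7, Dbf4, Pole, Rfc1, Rfc2, Rfc3 and Rfc5, against 6.16% of detected protein-coding genes, and chromosome 8 held 6 (12.5%), against 5.42%. These chromosomes were picked after their counts were seen, and no test was made. A protein-coding gene started on the other strand within 1000 bases for 14 members, against 16% of detected protein-coding genes. Such neighbours included Prpf38a, 87 bases from the start of Orc1, Rars2, 13 bases from that of Orc3, and Prkdc, the DNA-dependent protein kinase gene, 466 bases from that of Mcm4. A member and its neighbour could differ widely in level. Prpf38a had 97.51 and 95.16 TPM beside a mean of 12.48 TPM for Orc1, and Prkdc had 12.04 and 9.64 TPM beside a mean of 125.6 TPM for Mcm4. Exon bases were shared with another annotated gene for 19 members, 15 of them on the opposite strand. The sources used here do not say whether strand was used in counting, so those levels are uncertain. Examples are Fen1 (78.8% of its exon bases, with the antisense gene Gm10143 at 1.96 and 1.54 TPM), Gins2 (67.3%, with Gse1) and Orc2 (29.8%, with Nif3l1). Counts of Fen1 (5200.36 and 6684.67) and Gm10143 (162.64 and 153.33) were not whole, but add up to whole numbers in each library. The same held for Orc4 (4435.52 and 4855.81) and Acvr2a (4571.48 and 5267.19) on the opposite strand. Strand thus did not keep the reads of these pairs apart. Mcm7 also hosts the microRNA genes Mir25, Mir93 and Mir106b, which were listed at 0 counts in both libraries of RNA longer than 200 nt.

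Gene levels include transcripts that encode no protein. The 48 members had 241 listed transcripts, and 39 members had more than 1. In 37 of those 39 the same transcript led in both libraries, against 91.4% of 9585 comparable genes, with Fen1 and Lig1 as the exceptions. Over the 45 members whose transcripts were all in the reference annotation, protein-coding transcripts made up a median of 94.5% of the gene's TPM. Over the 36 of these with several transcripts the median was 90.3%, against 94.3% in 8852 detected genes with several transcripts. The protein-coding share was at least 90% in 28 members and below 75% in 10.

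As a share of the gene, protein-coding transcripts were lowest in Gins2 (ENSMUSG00000031821.7, chromosome 8, 120578633 to 120589304, mm10). Its 511-nt retained-intron transcript Gins2-204 took 72.01% of the gene's TPM in replicate 1 and 68.7% in replicate 2. The protein-coding Gins2-201, with 3900 nt, took 24.21% and 24.77%. TPM is per length, so a transcript much shorter than the others holds a smaller share of the reads than of TPM. On protein-coding transcripts alone Gins2 had 21.6 TPM, close to Gins3 at 20.7 TPM, and the 4 GINS genes spanned 3.89-fold, with Gins4 the highest at 80.3 TPM. Orc4 (ENSMUSG00000026761.8, chromosome 2, 48902824 to 48950277) was led by the non-coding Orc4-212, with 27.34% and 25.16%. Its protein-coding share was 29.9% in replicate 1 and 27.7% in replicate 2. Its protein-coding level of 32.0 TPM lay below those of Orc3 at 64.2 TPM and Orc6 at 81.9 TPM, so the order within the complex changes with this choice. Rpa1 also carried a large retained-intron transcript, Rpa1-205, with 45.12% and 43.06%, which leaves 52.6 TPM of protein-coding transcripts. The order of Fen1 and Lig1 turned as well, with 95.5 TPM for Fen1 and 81.3 TPM for Lig1 on protein-coding transcripts. Top2a was 70.9% and 68.0% protein-coding, which places it at 230 TPM, below Pcna at 291 TPM and Mcm6 at 243 TPM. The median fell to 56.46 TPM on this scale, over the 45 members with a protein-coding level. Lig1-209, a non-coding transcript of Lig1, was 0.65% of the gene in replicate 1 and 20.64% in replicate 2, so shares of single transcripts were not always stable. Protein-coding shares are not given for Rfc1, Pold1 and Pold3, because some of their transcripts are not in the reference annotation.

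**Figure D3:**
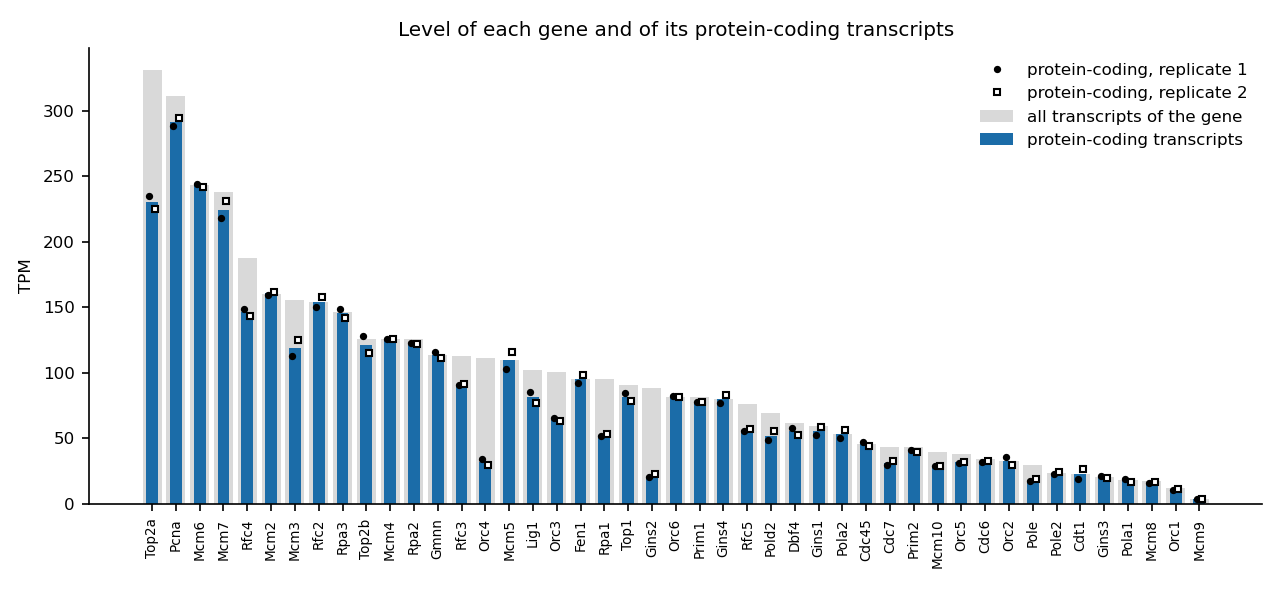
TPM of each gene over all its transcripts (grey bars, mean of 2 libraries) and over its protein-coding transcripts alone (blue bars, mean, with replicate 1 as filled circles and replicate 2 as open squares), for the 45 members with every transcript in the reference annotation. The grey bar rises far above the blue bar for Gins2, Orc4, Rpa1 and Top2a and hardly at all for Mcm6 and Mcm2.

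The 2 libraries gave similar levels for the members. Counts of replicate 2 were set against those of replicate 1, gene by gene, in an exact binomial test (two-sided, scaled library sizes, Benjamini-Hochberg adjustment over 17148 genes). None of the 48 members differed by 2-fold at an adjusted p under 0.05, against 2.8% of all genes tested and 0.0317% (3 genes) of the 9474 genes with at least the mean count of the lowest member. A count of 0 is therefore near the background of genes with such counts. An unadjusted p under 0.05 was found for 23 members, against 43.4% of all genes tested and 55.4% of the 9474, and the edgeR exact test with an assumed coefficient of variation of 0.1 also called 0 of them. The median absolute log2 ratio was 0.06 over the members, against 0.14 over all genes tested and 0.09 over the 9474. In 46 of 48 members the libraries were within 1.2-fold.

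Without a fold minimum 19 members (39.6%) passed the binomial test, 12 higher and 7 lower in replicate 2, against 34.9% of all genes tested (18% higher and 17% lower) and 46.9% of the genes with at least the mean count of the lowest member. That share is near the background. Cdt1 (ENSMUSG00000006585.2, chromosome 8, 122568015 to 122573554) differed most, with 1805 counts in replicate 2 and 1069 in replicate 1, a log2 ratio of 0.51 (adjusted p = 2.39e-18, exact binomial). Its edgeR adjusted p was 0.454, so the call rests on sampling noise being the only error. Gm20388, a gene annotated across Cdt1 on the same strand without shared exon bases, went the other way. It had 503.47 counts in replicate 1 and 30.21 in replicate 2. Counts of Cdt1 were whole numbers in both libraries, unlike those of Gm20388. Whether reads moved between Gm20388 and Cdt1 was not tested. Pold1 (log2 ratio 0.33) and Pold2 (0.22) followed among the higher members, and Pola1 (-0.23), Orc2 (-0.16) and Top2b (-0.15) were the lowest. With spike-in scaling 31 members passed, 28 higher and 3 lower, against 38% of all genes tested and 51.1% of the 9474, where 3724 were higher and 1118 lower. That scaling moved the median log2 ratio over all genes to 0.065, against 0.007 as reported, so the split of directions depends on the scaling for the genes as a whole.

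The direction of these small differences went with base composition. The 12 members higher in replicate 2 had a transcript GC content of 47.0% to 60.4%, and the 7 lower members had 37.5% to 45.7%. Across the 48 members GC content and log2 ratio had a Pearson correlation of 0.76, against 0.55 over 9459 genes with at least the mean count of the lowest member and 0.17 over 17062 genes tested. These are descriptions across genes that share both libraries, without a p. After the trend with GC content over all genes was taken off, the log2 ratio was 0.37 for Cdt1, 0.17 for Pold1, 0.10 for Pold2, -0.13 for Pola1, -0.09 for Orc2 and -0.05 for Top2b. Orc2 no longer passed the exact binomial test (adjusted p = 0.0615). In all 22 members passed, 19 higher and 3 lower, against 26.2% of all genes tested and 33.7% of the 9474. Of the 9474, 1757 were higher and 1439 lower. The part of GC content in these differences was not otherwise tested.

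**Figure D4:**
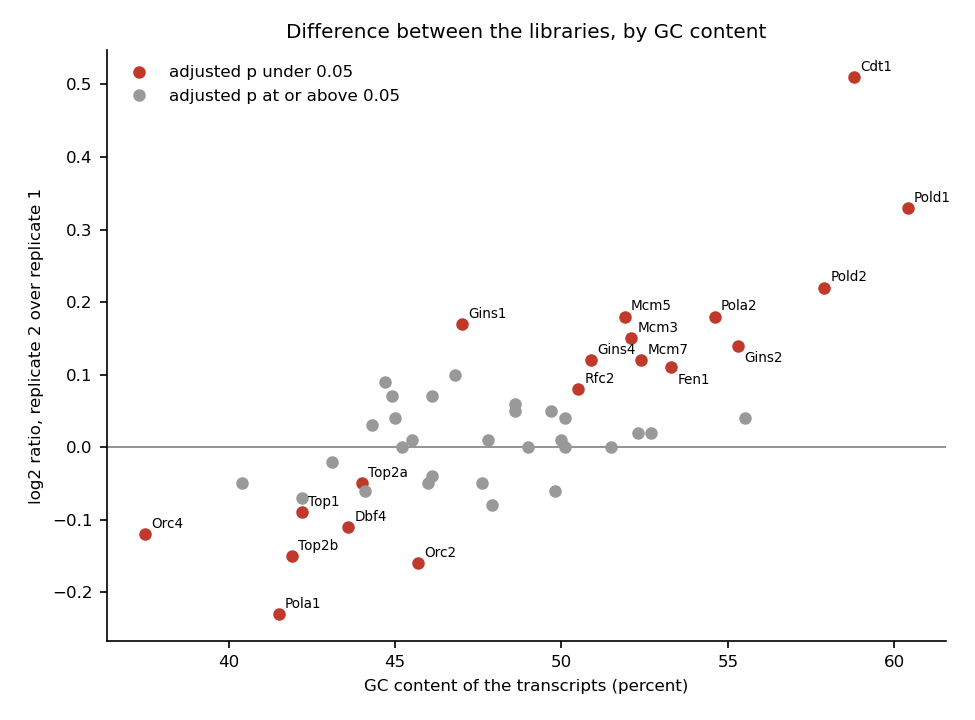
Log2 ratio of each of the 48 members, replicate 2 over replicate 1, against the GC content of its transcripts in percent, with members of adjusted p under 0.05 (exact binomial test) in red and named. The ratios climb from Orc4 and Pola1 at low GC content to Cdt1 (0.51) and Pold1 (0.33) at high GC content, and every point is under 2-fold.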

How the data were processed

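Values start from tables the authors deposited for each library. Per the file headers, the authors gave an expected count (an estimated number of reads), a TPM, a posterior mean TPM, an FPKM and interval bounds of TPM, treated here as a signal, and for transcripts a percent of their gene. Spike-ins share the total of TPM with the genes and held 15.2% and 14.8% of it. Per the labels the assembly was mm10. The sources used here do not give the annotation, aligner, quantifier or strand setting. A cited Smart-seq protocol amplifies cDNA, so tests and intervals cover counting error only, and 3 counts correspond to 0.0772 and 0.0653 CPM.

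Symbols and coordinates came from GENCODE M21 on the same assembly by identifier without version (42462 genes matched). Expected counts were rounded to whole numbers, scaled by TMM factors (edgeR 4.0.16, R 4.3.3), and tested where the summed count reached 20. Alternatives used spike-in or total scaling, size factors of DESeq2 1.42.0, other units, pseudocounts (main value 1) and filters. The GC trend was a polynomial of degree 3. Python 3.11.15, scipy 1.17.1 and pandas 2.3.3 were used. The replicate test was tested on simulated counts, where 100% of 3-fold and 8-fold changes were called among 17166 genes, with 1 false call. Both changes lie past the 2-fold minimum of a call. Between the real replicates of the same tissue 480 genes were called, so the simulation gives no error rate for these libraries. Between the real libraries edgeR gave a coefficient of variation of 7.82% over 14043 genes. Members, lists and tests were chosen with earlier results of these data known. All 48 members could be named, and of other lists the 3 highest and 3 lowest. Protein motifs were not analysed here.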

Additional observations from a re-analysis of the deposited data

How the results depend on the processing

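No paired analysis was possible because the libraries form 1 group. All 48 members stayed at 1 TPM or more without either replicate, as FPKM and as posterior mean TPM. The median over members (81.7 TPM) was 52.75 as FPKM, 96.11 as TPM over genes alone, 68.94 as a geometric mean and 56.46 over protein-coding transcripts, a scale chosen after seeing the data. In the same order of settings origin licensing had 24.69, 44.99, 47.67 and 32.41, and the helicase genes had 45.82, 83.48, 62.89 and 55.54. For the polymerases, FPKM gave 29.01, genes alone 52.83 and protein-coding transcripts 40.43. Clamp and loader genes had 86.3, 157.3 and 146 in those 3 settings, and 131.5 as posterior mean TPM. The last class had 73.54, 134.0 and 108.5, and 126.2 as a geometric mean. The protein-coding medians leave out Rfc1, Pold1 and Pold3. They cover 45 of 48 members, 7 of 9 polymerase genes and 5 of 6 clamp and loader genes. Rfc1 was the lowest of its class, so 146 is not over the same genes as the 133.7 TPM over all transcripts. Leaving out a replicate gave 70.41 to 73.2 for helicase, 44.01 to 47.32 for polymerase, 111.1 to 113.4 for the last class and 132.6 to 134.7 TPM for clamp and loader genes. FPKM and TPM over genes alone rescale every gene of a library alike, which accounts for their shifts. The difference between the MCM ring and the origin recognition complex was 1.71 as a mean of logs and 2.08 over protein-coding transcripts. The median span within a complex or group fell to 2.82-fold over protein-coding transcripts. That value is without polymerase delta, where only 1 gene had a protein-coding level. Of the pairs, 49 differed 1.5-fold and 31 differed 2-fold. Between replicates, 480 genes were called, against 82 with a minimum summed count of 100, 155 by edgeR, 847 at 1.5-fold and 5990 without a fold minimum, where 19 members passed. Members past the adjusted p numbered 31 with spike-in scaling and 0 by edgeR. Leaving out a replicate was not run for the comparison of replicates, since 1 library would remain. The causes were not tested otherwise. The smallest count behind a member was 503, and the number of libraries limits the precision of the SDs.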
